A study of Mus musculus with 16 samples.

Results

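Brown fat and the inguinal fat pad were compared in obese male C57BL66/J mice, through 4 RNA-seq libraries labelled brown adipose (BAT) and 4 labelled inguinal (iWAT), which are 8 of the 16 libraries of a study of adipose depots. All mice had been made obese with a high-fat diet, so both depots carry that treatment, and no lean animals or age are given in the labels. Tissue was flash frozen, and libraries were made from its total RNA with the TruSeq RNA kit. The labels do not say whether the libraries came from separate mice, so the p-values below measure the spread between these libraries. Of the 46386 entries in the deposited table, 13878 reached at least 1 FPKM (fragments per kilobase of transcript, scaled to the library's fragments) in at least 4 of the 8 libraries and were tested.

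Brown adipocytes burn fatty acids and glucose in densely packed mitochondria. Uncoupling protein Ucp1 lets protons return across their inner membrane without making ATP, so that the energy is released as heat, and noradrenaline drives this through beta-adrenergic receptors, cyclic AMP and protein kinase A. Inguinal fat of the mouse stores triglyceride and secretes hormones such as leptin and adiponectin, and it can form Ucp1-bearing beige adipocytes in the cold. Obesity brings macrophages and new matrix into white fat.

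The contrast is easiest to see at 3 genes whose upstream sequence is shown: Ucp1 itself, Dio2, which makes active thyroid hormone inside brown fat, and Lep, which encodes leptin. Ucp1 lies on chromosome 8, 83290352 to 83298452, plus strand, ENSMUSG00000031710 in mm10. Dio2 lies on chromosome 12, 90724552 to 90738438, minus strand, ENSMUSG00000007682, and Lep on chromosome 6, 29060220 to 29073877, plus strand, ENSMUSG00000059201. The 250 bases before each RefSeq gene start (GRCm38.p6, read 5′ to 3′ on the gene's strand) are given with the cyclic AMP element core TGACG, or the full element TGACGTCA that contains it, in capitals.
Ucp1, 8:83290098-83290347, plus strand: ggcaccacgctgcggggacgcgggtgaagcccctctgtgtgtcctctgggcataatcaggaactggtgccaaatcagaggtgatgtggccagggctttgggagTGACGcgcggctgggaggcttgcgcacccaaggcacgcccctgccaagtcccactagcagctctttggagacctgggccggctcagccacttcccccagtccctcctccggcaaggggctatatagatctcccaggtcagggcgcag
Dio2, 12:90739039-90739288, minus strand: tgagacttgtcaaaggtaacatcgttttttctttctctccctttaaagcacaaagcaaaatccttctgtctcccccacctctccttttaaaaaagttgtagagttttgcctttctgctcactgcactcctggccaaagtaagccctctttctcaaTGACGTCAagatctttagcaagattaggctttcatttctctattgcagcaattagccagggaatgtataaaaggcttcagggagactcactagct
Lep, 6:29059971-29060220, plus strand: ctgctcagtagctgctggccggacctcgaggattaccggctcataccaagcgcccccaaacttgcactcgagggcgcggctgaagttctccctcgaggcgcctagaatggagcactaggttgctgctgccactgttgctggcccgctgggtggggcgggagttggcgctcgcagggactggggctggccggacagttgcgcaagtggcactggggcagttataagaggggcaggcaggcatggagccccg
The Ucp1 window holds 1 TGACG, and the Dio2 window holds 1 TGACGTCA. Neither motif, searched on both strands, is in the Lep window. Over 32851 RefSeq promoter windows of the same length, 17.8% hold TGACG and 1.55% hold TGACGTCA, so a match is a description of the letters and not of a bound site.

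Ucp1 stood at 5172, 4931, 3771 and 4269 FPKM in BAT 1 to 4. In iWAT 1 to 4 it stood at 0.304, 0.220, 0.254 and 0.194 FPKM. All 4 brown libraries were high and all 4 inguinal libraries were under 1 FPKM; the log2 difference (BAT minus iWAT, of log2(FPKM + 1)) was 11.82 ± 0.10 (SE), with an adjusted p of 4.18e-12. Dio2 was 130.5, 119, 60.2 and 163 FPKM in BAT and 0.203, 6.73, 0.294 and 0.323 FPKM in iWAT. It was higher in every brown library (log2 difference 5.81 ± 0.68, adjusted p 1.60e-04), and 1 inguinal library, iWAT 2, stood above the other 3; without it the difference was 6.46. Lep ran the other way, at 41.4, 50.2, 41.4 and 50.5 FPKM in BAT and 1417, 2178, 979.7 and 1564 FPKM in iWAT (log2 difference -4.98 ± 0.21, adjusted p 2.86e-08), with no overlap between the depots. By these 3 genes every library stood with its labelled tissue.

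Across all tested entries, limma called 1974 (14.2%) higher in BAT and 8974 (64.7%) lower at an adjusted p under 0.05. That balance depends on the scale. FPKM is relative to all fragments of a library, the median entry differed by -0.55 on the log2 scale, and fewer genes reached 1 FPKM in a brown library (12464 to 12653) than in an inguinal one (13886 to 14304). After median-of-ratios scaling, which sets the typical gene equal between libraries (size factors 0.785 to 0.83 in BAT and 1.23 to 1.27 in iWAT), the median difference was -0.02 and the calls became 4562 (32.9%) higher and 4855 (35.0%) lower. The share of calls that were higher in BAT thereby moved from 18.0% to 48.4%. All 1974 higher calls were also higher after scaling; of the 8974 lower calls 4855 were lower again, 3568 were not called and 551 became higher. A gene is therefore written as higher or lower below only where both scales called it so, and the counts for a gene list are given on both. Each list count is to be read against these shares of all entries, 14.2% and 64.7% as deposited and 32.9% and 35.0% after scaling. A gene could pass the filter through either depot alone, so these counts describe the tested members of a list and no others. Wherever all 8 values of a gene are printed, the depots did not overlap, except for Adrb3, Fgf21, Prdm16 and Scd1. Most of these genes were named because they were called, and the largest rises and falls by a rule that requires no overlap. The lack of overlap therefore describes the printed values and is not a separate result.

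**Figure D1:**
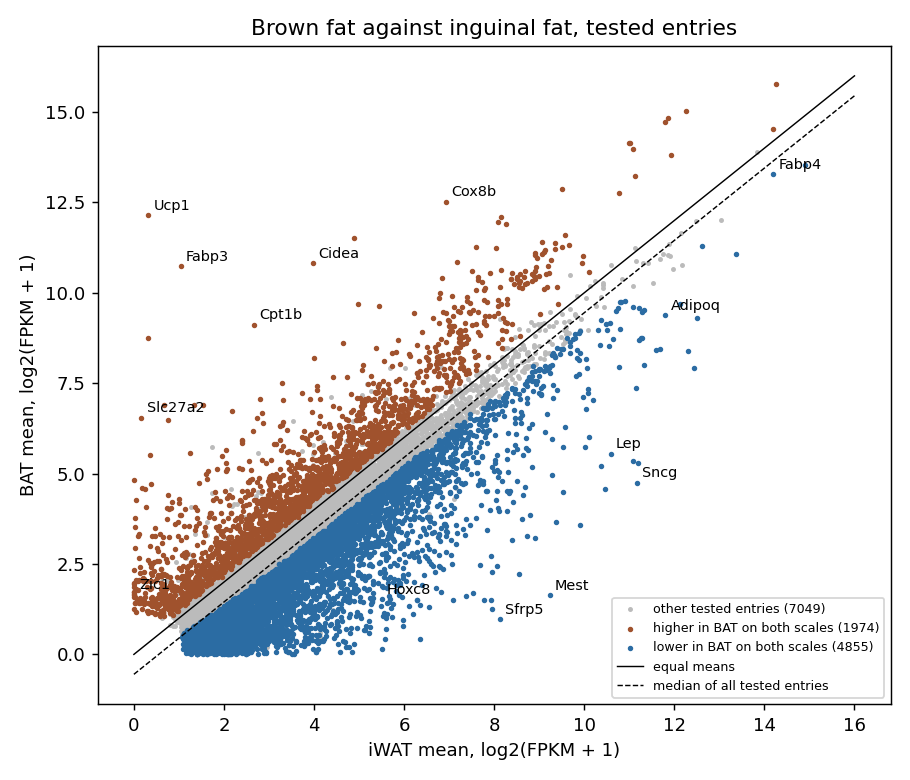
Mean log2(FPKM + 1) in the 4 iWAT libraries (x axis) against that in the 4 BAT libraries (y axis) for the 13878 tested entries; brown points (1974) were higher and blue points (4855) lower in BAT on both scales. The dashed line, the median of all entries, lies below the line of equal means, and Ucp1, Fabp3, Cidea and Cpt1b lie farthest above it among the labelled genes.

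Large differences ran in both directions. On both scales 835 entries were higher by at least 1 log2 unit and 1899 were lower by at least 1. The 12 largest rises that passed the rule for naming were Ucp1, Fabp3, its pseudogene Fabp3-ps1, Cidea, Cox7a1, Cpt1b, Slc27a2, Kng2, Dio2, Acot11, Cox8b and Pank1; reads of Fabp3 and Fabp3-ps1 cannot be told apart with certainty, and Serpina3n and Serpina3c belong to a family of near-identical copies, so their values are uncertain too. The 12 largest falls under the same rule, which leaves out entries with a Gm, Rik or LOC name, were Mest, Sfrp5, Serpina3n, Sncg, Lbp, Cfb, Retnla, Wfdc21, Retn, Nnat, Trf and Serpina3c. Kng2, which encodes a kininogen, a precursor of the peptide bradykinin, was 129.7, 117, 107 and 115 FPKM in BAT and 0.825, 0.450, 0.592 and 0.508 FPKM in iWAT (log2 difference 6.22 ± 0.10). The libraries of one depot resembled each other more than those of the other: Spearman's rho was 0.964 to 0.980 within BAT, 0.958 to 0.979 within iWAT and 0.788 to 0.822 between them.

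The thermogenic effectors, a list of genes tied to heat production or to brown fat more broadly, were the list with the highest median. The lists were chosen with earlier results of these data known, so this rank is a description and not a test of thermogenic function. All 18 listed genes were tested, 17 were higher and 0 lower on deposited values (14.2% and 64.7% of all entries), 18 were higher after scaling (32.9% of all entries), and the median log2 difference was 4.30 against -0.55 for all entries. Cidea, a lipid droplet protein, was 2011, 1886, 1652 and 1639 FPKM in BAT and 14.5, 11.6, 20.0 and 12.7 FPKM in iWAT, where it was present at a low level in every library (log2 difference 6.86 ± 0.15, adjusted p 1.11e-09). Slc27a2, which activates and imports long-chain fatty acids, was 99.0, 86.6, 88.5 and 95.4 FPKM in BAT and 0.115, 0.0116, 0.0319 and 0.317 FPKM in iWAT (log2 difference 6.39 ± 0.10). It was near 0 in inguinal fat. Acot11, a brown fat thioesterase, was 99.1, 98.1, 56.5 and 101 FPKM in BAT and 0.571, 0.889, 0.627 and 0.672 FPKM in iWAT; BAT 3 was the lowest brown library and still far above the inguinal ones. Pank1, which starts coenzyme A synthesis, differed by 5.56 ± 0.09 and Elovl3, a cold-induced fatty acid elongase, by 4.20 ± 0.35. Elovl3 was highest in BAT 1, at 46.9 FPKM against 14.9 to 23.1 in the other 3 brown libraries. Ces1d, a carboxylesterase, was the exception of the list, with a difference of -0.12 on deposited values (adjusted p 0.283) and 0.52 after scaling.

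**Figure D2:**
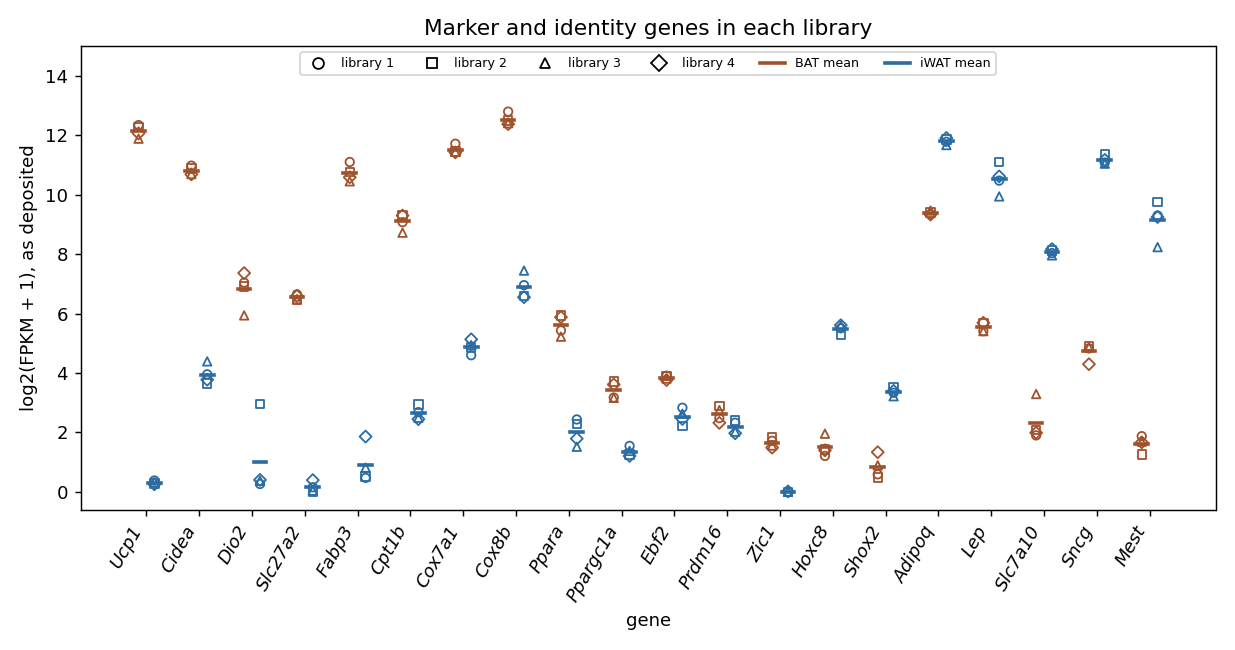
log2(FPKM + 1) of 20 named genes in each library, brown symbols for BAT and blue for iWAT, with a bar at each depot's mean and a symbol shape for each replicate number. Ucp1, Slc27a2 and Fabp3 separate fully from near 0 in iWAT, Prdm16 overlaps between the depots, and Lep, Sncg and Mest separate in the opposite direction.

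Brown fat and oxidative muscle share a set of genes, and this matters here because 2 brown libraries held muscle transcripts. The summed level of the 24 skeletal muscle genes found in the table was 159, 140.0, 3782 and 3136 FPKM in BAT 1 to 4 and 420.4, 146, 348 and 877 FPKM in iWAT 1 to 4. BAT 3 and BAT 4 stood far above BAT 1 and BAT 2, and iWAT 4 was the highest inguinal library. The fast-fibre calcium pump Atp2a1 was 0.504, 0.839, 272 and 281 FPKM in BAT, and the muscle subunit Cox6a2 was 0.0751, 0, 32.9 and 31.8 FPKM. Neither passed the test, and their differences turned from 0.40 to -3.29 and from 0.57 to -1.94 without BAT 3 and BAT 4. Mitochondrial creatine kinase Ckmt2 had the same split, 0.0524, 0.0264, 29.0 and 26.6 FPKM, and was not tested because it reached 1 FPKM in too few libraries. Of the 15 muscle genes tested, 0 were higher and 0 lower on deposited values, and 1, the light chain gene Myl1, was higher after scaling (and on deposited values without BAT 1 or BAT 2); without BAT 3 and BAT 4 the median was -2.68 and 10 were lower, where 58.9% of all entries were.

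Most of the shared brown and muscle genes were higher with and without those libraries. Of 15 tested, 13 were higher and 1 lower on deposited values, against 14.2% and 64.7% of all entries. After scaling 13 were higher and 0 lower, against 32.9% and 35.0%. The median was 3.97 in all libraries and 3.99 without BAT 3 and BAT 4. Without them 13 were higher and 2 lower as deposited, and 13 and 2 after scaling; the lower pair was Cox6a2, which turned with the muscle libraries as described above, and Hspb7. Fabp3, the heart-type fatty acid binding protein, was 2188, 1735, 1394 and 1533 FPKM in BAT and 0.387, 0.439, 0.763 and 2.63 FPKM in iWAT (log2 difference 9.80 ± 0.31, and 10.01 without BAT 3 and BAT 4). Cox7a1, a subunit of cytochrome c oxidase, was 3352, 2807, 2771 and 2737 FPKM in BAT and 23.2, 28.1, 29.6 and 34.1 FPKM in iWAT, with differences of 6.62 ± 0.12 and 6.70. BAT 1 was the highest library for both genes. The part of muscle tissue in these differences was not tested. The lower call in all libraries was Hspb7, a small heat shock protein of muscle, with a difference of -1.76 that was not called after scaling (-1.34, adjusted p 0.1), nor without iWAT 1 or iWAT 4; without BAT 3 and BAT 4 it was -2.74.

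For genes with a close relative of the same function, the share of each partner was compared within each library. Cox8b made up 74.1 ± 0.859% (SD, n = 4) of the summed FPKM of Cox8b and Cox8a in BAT and 10.7 ± 2.67% in iWAT. Cox7a1 was 83.0 ± 0.921% of Cox7a1 plus Cox7a2 in BAT and 11.7 ± 1.28% in iWAT. Carnitine palmitoyltransferase, which commits fatty acids to mitochondrial oxidation, was almost wholly of the muscle form in BAT: Cpt1b was 98.9 ± 0.205% of Cpt1b plus Cpt1a, against 15.9 ± 1.81% in iWAT. The liver form moved the other way, with Cpt1a at 7.25, 5.92, 4.56 and 5.54 FPKM in BAT and 29.8, 32.6, 21.8 and 28.4 FPKM in iWAT (log2 difference -2.10 ± 0.15). For lactate dehydrogenase the share of the heart-type Ldhb was larger in BAT, 45.4 ± 1.60% of Ldhb plus Ldha against 9.68 ± 1.32% in iWAT. Ldha was still the larger partner in every library. Pdk4, which restrains pyruvate oxidation, was 74.2 ± 2.71% of Pdk4 plus Pdk2 in BAT and 43.0 ± 6.54% in iWAT. Not every pair differed so much: Acot2 was 77.5 ± 1.05% of Acot2 plus Acot1 in BAT and 81.7 ± 0.986% in iWAT. These shares are descriptions with no test, and a share on FPKM is not touched by scaling.

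**Figure D3:**
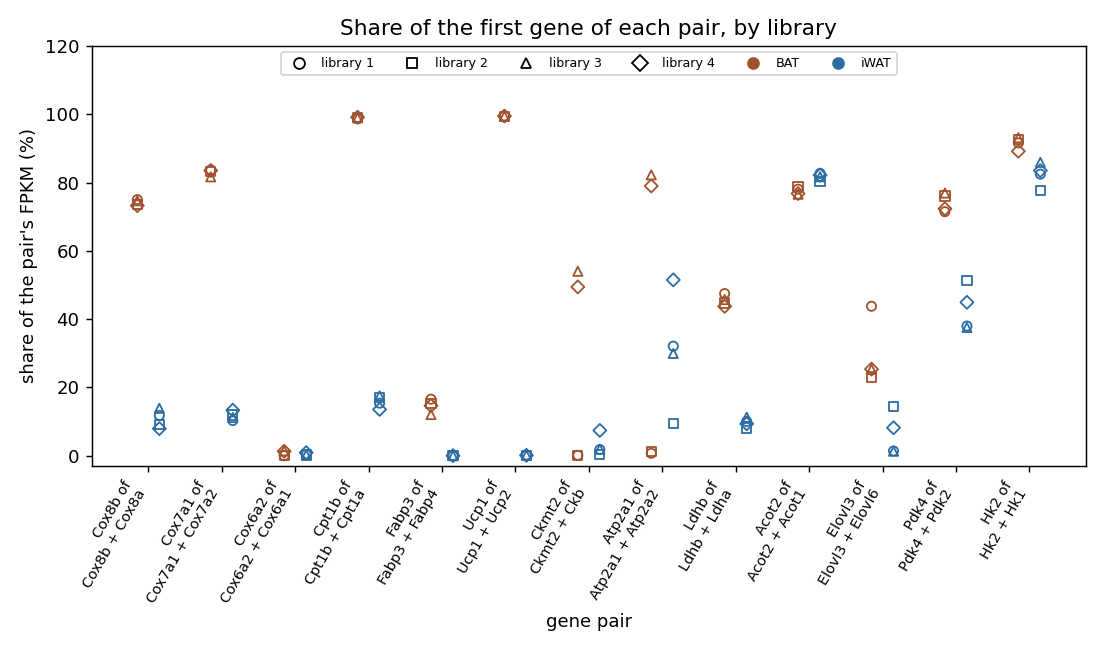
Share (%) of the first gene of each pair in the pair's summed FPKM, 1 symbol per library, brown for BAT and blue for iWAT. Cox8b, Cox7a1, Cpt1b and Ucp1 separate without overlap, while Ckmt2 and Atp2a1 are high in BAT 3 and BAT 4 and low in BAT 1 and BAT 2.

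Genes of the respiratory chain were higher in BAT nearly throughout, where 14.2% of all entries were higher as deposited and 32.9% after scaling. The lower shares of all entries were 64.7% and 35.0%. The 81 nuclear genes of complexes I to IV and ATP synthase took 10.4 ± 0.526% (SD, n = 4) of all FPKM in BAT and 2.59 ± 0.118% in iWAT. All 37 complex I genes and all 14 genes of complexes II and III were higher, with medians of 1.72 and 2.20. In complex I, which takes electrons from NADH, Ndufv1 and Ndufa10 differed by 2.50 and 2.49. Cytochrome c (Cycs) was 750.4, 699, 700.3 and 670.2 FPKM in BAT and 106, 119.6, 109 and 124 FPKM in iWAT, a log2 difference of 2.61 ± 0.08 (adjusted p 3.63e-09). In complex III, Uqcrc2 differed by 2.59 ± 0.11, and the iron-sulphur subunit Sdhb of complex II by 2.51 ± 0.09. Complex IV had 12 of 14 tested genes higher and 1 lower on deposited values, and 12 and 0 after scaling. Cox5a differed by 2.71 ± 0.10.

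ATP synthase, the enzyme that Ucp1 bypasses, was less uniform. On deposited values 12 of 16 genes were higher and 4 lower, against 14.2% and 64.7% of all entries. After scaling 13 were higher and 3 lower, against 32.9% and 35.0%. The catalytic subunit Atp5b was 7857, 7161, 6168 and 6748 FPKM in BAT and 1588, 1665, 1863 and 1873 FPKM in iWAT (log2 difference 2.0 ± 0.10), and Atp5a1 and Atp5j2 differed by 2.0 and 2.04. The 3 genes that were lower on both scales were Atp5g1, Atp5g3 and Atpif1. Atp5g1, a gene for the membrane ring, was 8.07, 7.26, 32.2 and 27.6 FPKM in BAT and 71.8, 78.5, 78.7 and 84.1 FPKM in iWAT; the difference was -2.28 ± 0.49, and -3.19 without BAT 3 and BAT 4, which were the 2 higher brown libraries. Atpif1, which encodes the inhibitor of the enzyme's reverse reaction, was 17.8, 18.3, 19.9 and 15.6 FPKM in BAT and 72.9, 78.0, 86.1 and 69.1 FPKM in iWAT (log2 difference -2.04 ± 0.10). Genes for the ring have near-identical copies in the genome, so reads may be split between them and these values are uncertain.

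The mitochondrial genome's own 13 protein genes could be read only in part. Of these, 8 (mt-Co1, mt-Co2, mt-Atp8, mt-Atp6, mt-Co3, mt-Nd4, mt-Cytb and mt-Nd4l) were listed at exactly 0 in all 4 BAT libraries while their means in iWAT were 3500.3 to 44025 FPKM. Since every mitochondrion needs them, they were treated as failed estimates and left untested. The same was done for each of the 43 entries at 0 throughout 1 depot with a median of at least 10 FPKM in the other. Of these 15 would have passed the filter. Some of the 43 were also at 0 in part of the other depot's libraries, such as Snora33 in iWAT 1 and iWAT 4. The 5 that were estimated were all higher: mt-Nd1 was 31437, 30849, 39317 and 32301 FPKM in BAT and 4525, 4146, 5820.3 and 4964 FPKM in iWAT (log2 difference 2.79 ± 0.13), and mt-Nd3 and mt-Nd6 differed by 3.17 and 1.90. No sum over the 13 genes is compared, since the BAT sum would lack those at 0. Mitochondrial genes overlap each other on both strands and have nuclear copies, so single values are uncertain. Whether what set 8 genes to 0 in BAT also changed the BAT values of the other 5 was not tested. Their differences are therefore not a measure of the level of mitochondrial transcripts as a whole.

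Mitochondrial fuel oxidation genes were likewise mostly higher in BAT. The counts stand against 14.2% of all entries higher and 64.7% lower as deposited, and 32.9% and 35.0% after scaling. In the citric acid cycle and pyruvate entry 26 of 27 genes were higher on both scales, with a median of 2.25. Succinyl-CoA ligase subunit Sucla2 was 984, 1045, 996 and 1019.7 FPKM in BAT and 95.9, 122, 115 and 106 FPKM in iWAT, a log2 difference of 3.20 ± 0.09 (adjusted p 1.99e-09). The remaining gene, pyruvate carboxylase (Pcx), was 126, 138, 114 and 139 FPKM in BAT and 214, 245, 204 and 221 FPKM in iWAT, lower on deposited values (-0.77) and not called after scaling (-0.13, adjusted p 0.215). Mitochondrial fatty acid oxidation had 19 of 21 genes higher and 1 lower, and 20 and 1 after scaling, with a median of 1.79. Hadhb, the thiolase subunit of the trifunctional protein, was 4095, 3606, 3669 and 3874 FPKM in BAT and 281, 322, 306 and 319 FPKM in iWAT (log2 difference 3.63 ± 0.08). Acaa2, the last enzyme of the spiral, differed by 3.69 ± 0.07. Cpt1a was the lower member, as described above.

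Oxidation of fatty acids in peroxisomes gave a mixed picture that turned on the scale. On deposited values 4 of 16 genes were higher and 7 lower, against 14.2% and 64.7% of all entries. After scaling 13 were higher and 2 lower, against 32.9% and 35.0%. Without BAT 3, or without iWAT 4, the deposited count of lower genes was 4. Abcd3, Ech1 and Crat were higher, by 1.76, 1.55 and 1.54. Abcd2, a transporter of very long-chain fatty acids into the peroxisome, was 24.2, 25.1, 28.8 and 29.8 FPKM in BAT and 148, 129, 143 and 146 FPKM in iWAT (log2 difference -2.35 ± 0.09), while its relative Abcd3 was 135, 122, 121 and 138 FPKM in BAT and 35.4, 41.6, 35.3 and 37.7 FPKM in iWAT. The thiolase Acaa1b was also lower, at a difference of -0.91 ± 0.09. It has a near-identical copy, Acaa1a, so that value is uncertain.

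Glucose handling was higher in BAT in 17 of 21 genes and lower in 2 on deposited values, against 14.2% and 64.7% of all entries. After scaling 19 were higher and 1 lower, against 32.9% and 35.0%. The insulin-sensitive transporter Slc2a4 was 123, 139, 119 and 143 FPKM in BAT and 89.2, 73.8, 92.0 and 87.5 FPKM in iWAT (log2 difference 0.61 ± 0.09, adjusted p 2.06e-04), and the basal transporter Slc2a1 was lower, at -0.91. Ldhb, described above for its share, was the largest difference of the list, 3.23 ± 0.12. Pfkl, a form of the committing enzyme phosphofructokinase, was 254, 221, 134 and 224 FPKM in BAT and 35.6, 47.9, 33.6 and 33.6 FPKM in iWAT (log2 difference 2.41 ± 0.20). Slc16a1, which carries lactate and pyruvate across membranes, differed by 2.38 ± 0.11.

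Lipid synthesis genes went in both directions. Of 19 lipogenic genes 10 were higher and 6 lower, against 14.2% and 64.7% of all entries, and 13 and 3 after scaling, against 32.9% and 35.0%. Elovl6, which lengthens palmitate, was 60.3, 52.5, 44.0 and 68.0 FPKM in BAT and 4.0, 4.21, 4.74 and 4.32 FPKM in iWAT (log2 difference 3.41 ± 0.13). Acacb, whose product malonyl-CoA restrains fatty acid entry into mitochondria, and ATP citrate lyase (Acly) differed by 3.18 and 2.1. Lower on both scales were the desaturases Scd2 (-2.87) and Fads1 (-2.34) and malic enzyme Me1 (-1.42), which supplies NADPH. Scd1, the main stearoyl-CoA desaturase of fat, was 1352, 1411, 1721 and 2515 FPKM in BAT and 6160.0, 4592, 7816 and 0 FPKM in iWAT. The 0 in iWAT 4 stands beside high values in the other 3 inguinal libraries, and it sets the direction: the difference was 1.31 with it and -1.83 without that library.

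Glycerol phosphate enzymes were much higher in BAT. Glycerol kinase (Gk), which lets a cell reuse the glycerol freed by lipolysis, was 128, 118, 71.7 and 107 FPKM in BAT and 3.32, 4.01, 2.46 and 4.26 FPKM in iWAT (log2 difference 4.55 ± 0.19, adjusted p 2.56e-08). The mitochondrial glycerol phosphate dehydrogenase Gpd2 was 170.1, 184, 159 and 212 FPKM in BAT and 9.92, 7.31, 9.11 and 8.47 FPKM in iWAT (log2 difference 4.23 ± 0.11), and its cytosolic partner Gpd1 differed by 2.34 ± 0.10. Together these enzymes form a shuttle that passes electrons from the cytosol to the respiratory chain. In the list of 6 tested genes 4 were higher and 1 lower, and 5 and 0 after scaling. Branched-chain amino acid breakdown was higher in 15 of 19 genes and lower in 2 (17 and 1 after scaling), but by smaller steps, with a median of 0.49. Both lists stand against 14.2% of all entries higher and 64.7% lower as deposited, and 32.9% and 35.0% after scaling. The dehydrogenase subunit Bckdha and propionyl-CoA carboxylase Pcca each differed by 1.24, whereas the first enzyme, the aminotransferase Bcat2, was lower: 67.3, 60.3, 52.2 and 55.0 FPKM in BAT and 117, 102, 117 and 116 FPKM in iWAT (log2 difference -0.94 ± 0.09).

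Creatine and calcium cycling are proposed routes of heat production beside Ucp1. Of 8 tested genes 2 were higher and 2 lower, against 14.2% and 64.7% of all entries. After scaling 4 were higher and 2 lower, against 32.9% and 35.0%. Without BAT 3 and BAT 4, 4 were lower as deposited, where 58.9% of all entries were. In all libraries the creatine-making enzymes were the lower pair, Gamt at 3.79, 3.90, 4.14 and 3.36 FPKM in BAT and 41.5, 52.7, 43.1 and 50.5 FPKM in iWAT (log2 difference -3.32 ± 0.10) and Gatm with -1.30 ± 0.13. Alpl, an alkaline phosphatase placed in the creatine cycle, was 7.25, 8.67, 4.90 and 6.30 FPKM in BAT and 2.09, 3.26, 1.95 and 1.90 FPKM in iWAT (log2 difference 1.23 ± 0.17). Calcium pump Atp2a2 differed by 0.81 ± 0.11.

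The transcriptional regulators of brown fat had smaller differences than the effectors. Of 19 tested, 10 were higher and 6 lower, against 14.2% and 64.7% of all entries, with a median of 0.37. After scaling 14 were higher and 1 lower, against 32.9% and 35.0%. Ppara, a receptor that turns on fatty acid oxidation genes, was 42.1, 59.8, 36.3 and 57.7 FPKM in BAT and 4.41, 3.85, 1.87 and 2.46 FPKM in iWAT (log2 difference 3.61 ± 0.23, adjusted p 4.56e-07). The coactivators of mitochondrial biogenesis followed: Ppargc1b differed by 2.85 ± 0.16, and Ppargc1a was 8.02, 12, 7.96 and 11.2 FPKM in BAT and 1.92, 1.40, 1.60 and 1.31 FPKM in iWAT (log2 difference 2.06 ± 0.14). The determination factor Ebf2 was 14.0, 13.9, 13.0 and 12.6 FPKM in BAT and 6.12, 3.67, 5.19 and 4.47 FPKM in iWAT (log2 difference 1.31 ± 0.12). Prdm16, the factor best known for imposing brown fate, was 4.58, 6.44, 5.73 and 4.0 FPKM in BAT and 4.02, 4.29, 3.07 and 2.92 FPKM in iWAT. Its ranges overlapped, and its difference of 0.43 ± 0.15 (adjusted p 0.0232) was not called when BAT 2, BAT 3, iWAT 3 or iWAT 4 was left out (adjusted p 0.0544 to 0.0671). Gata6 was lower in BAT on both scales (-1.72), and the thermogenic regulators Irf4 and Zfp516 were lower on deposited values only (-0.55 and -0.46).

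Adrenergic signalling genes were more often higher, 10 of 16 with 5 lower, where 14.2% and 64.7% of all entries were. After scaling 12 were higher and 2 lower, against 32.9% and 35.0% of all entries. The receptor Adrb1 was 14.8, 16.7, 14.9 and 9.34 FPKM in BAT and 3.01, 1.42, 2.29 and 2.41 FPKM in iWAT (log2 difference 2.18 ± 0.19, adjusted p 3.69e-06). Adrb3, the main beta receptor of rodent fat cells, was 142, 145, 77.9 and 104 FPKM in BAT and 84.6, 39.7, 104 and 69.9 FPKM in iWAT. Its difference of 0.68 ± 0.31 was not called on deposited values (adjusted p 0.0754) and was called after scaling (1.32, adjusted p 0.0046) and without BAT 3 or iWAT 3. Downstream, the stimulatory G protein Gnas was 2783, 2996, 2264 and 2611 FPKM in BAT and 649.8, 687, 605 and 672 FPKM in iWAT (log2 difference 2.02 ± 0.10), and Rgs2, which shortens G protein signals, differed by 2.50 ± 0.18. Adenylyl cyclase Adcy5 went the other way, 0.603, 0.687, 0.821 and 0.415 FPKM in BAT and 50.0, 52.5, 43.0 and 45.5 FPKM in iWAT (log2 difference -4.90 ± 0.10), as did the natriuretic peptide clearance receptor Npr3 (-3.41 ± 0.14).

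Genes proposed as markers of classical brown fat went in both directions, with a median of 0.67 against -0.55 for all entries. Of 8 tested, 4 were higher and 4 lower on deposited values, against 14.2% and 64.7% of all entries. After scaling 4 were higher and 2 lower, against 32.9% and 35.0%. Without iWAT 1, or without iWAT 4, the deposited count of lower markers was 2. Zic1 was 2.29, 2.60, 1.95 and 1.81 FPKM in BAT and 0, 0, 0 and 0.0119 FPKM in iWAT (log2 difference 1.65 ± 0.10, adjusted p 2.03e-07). It was listed at 0 in 3 of the 4 inguinal libraries and was low in the brown ones. Mpzl2 and Oplah were also higher, by 3.37 and 1.78. Lhx8, listed as a brown marker, was 1.12, 1.69, 1.96 and 1.15 FPKM in BAT and 3.51, 4.62, 3.35 and 4.55 FPKM in iWAT and so lower in BAT (log2 difference -1.02 ± 0.14, adjusted p 9.07e-05); under quantile normalization it was not called (-0.37, adjusted p 0.0516). Epsti1 was lower too, 0.390, 0.426, 0.542 and 0.196 FPKM in BAT and 3.75, 4.24, 19.7 and 3.33 FPKM in iWAT, with iWAT 3 well above the others.

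Beige markers split as well: 2 of 6 tested were higher and 4 lower, against 14.2% and 64.7% of all entries (2 and 3 after scaling), and 4 of the 10 listed, among them Tmem26 and Tbx1, stayed below the filter. The purinergic receptor P2rx5 was 32.2, 36.3, 32.2 and 34.4 FPKM in BAT and 2.46, 2.39, 2.74 and 2.82 FPKM in iWAT (log2 difference 3.27 ± 0.08), and the amino acid transporter Slc36a2 differed by 1.39 ± 0.11. Ear2, a ribonuclease of leukocytes, was lower at -4.40. Shox2, a homeobox factor, was 0.507, 0.403, 0.857 and 1.52 FPKM in BAT and 9.08, 10.4, 8.30 and 9.56 FPKM in iWAT (log2 difference -2.54 ± 0.17).

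Hox genes, which record position along the body axis, were mostly lower in BAT among the posterior members that were tested. Of 18 posterior Hox genes listed, 6 were tested. Of these, 0 were higher and 6 lower in BAT, against 14.2% and 64.7% of all entries (5 lower after scaling, against 35.0%). A gene near 0 in BAT, such as Hoxa10, could pass the filter only through iWAT and could then not be called higher. The count is therefore a description of the tested genes and no separate support for a difference in position. Hoxc8 was 1.31, 1.68, 2.88 and 1.64 FPKM in BAT and 44.3, 37.9, 47.2 and 47.7 FPKM in iWAT (log2 difference -4.0 ± 0.15, adjusted p 1.59e-08). Hoxa10 was 0, 0, 0.294 and 0 FPKM in BAT and 11.3, 8.95, 12 and 12.1 FPKM in iWAT (log2 difference -3.50 ± 0.13), and Hoxa9 differed by -2.82 ± 0.22. Hoxc10 was listed at 0 in all 4 BAT libraries and at 10.8, 10.5, 11.0 and 12 FPKM in iWAT; under the rule for zeros it has no fold change or test here, and a true absence cannot be told apart from a failed estimate. Among anterior Hox genes 4 of 14 were higher and 8 lower, against 14.2% and 64.7% of all entries, and 5 and 6 were after scaling, against 32.9% and 35.0% of all entries, so the count is near the background. Hoxa5 was 12.9, 12.3, 13.6 and 12.6 FPKM in BAT and 2.38, 1.49, 2.67 and 2.09 FPKM in iWAT (log2 difference 2.14 ± 0.12), and Hoxa4 differed by 2.33 ± 0.10. Hoxb5 was the lowest of the anterior list, at -1.45. Of the other positional factors 2 of 15 were higher and 12 lower, against 14.2% and 64.7% of all entries (3 and 7 after scaling, against 32.9% and 35.0%). Tbx5, a T-box factor of the forelimb and heart, was higher at 0.86, and Tbx15 was lower at -1.37 ± 0.22.

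White-selective genes were lower in BAT throughout, all 14 of 14 tested on both scales, with a median of -5.02. Of all entries 64.7% were lower as deposited and 35.0% after scaling. Some members also mark other cells or body position, so the list is not adipocyte genes alone. Mest, an imprinted gene that tracks fat cell enlargement, was 2.67, 1.38, 2.23 and 2.18 FPKM in BAT and 627, 864, 299.9 and 606 FPKM in iWAT, the largest fall of all named genes (log2 difference -7.51 ± 0.30, adjusted p 8.18e-08). Sncg (gamma-synuclein) was 27.4, 29.1, 28 and 18.6 FPKM in BAT and 2159, 2607, 2104 and 2297 FPKM in iWAT (log2 difference -6.43 ± 0.14). Slc7a10, an amino acid transporter used as a white adipocyte surface marker, was 2.73, 3.22, 8.79 and 2.97 FPKM in BAT and 261, 276, 247 and 286 FPKM in iWAT (log2 difference -5.75 ± 0.28). Wfdc21 differed by -6.28 ± 0.12.

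Genes that all adipocytes use were called about as often as all entries on deposited values. Of 19 tested, 3 were higher and 12 lower, against 14.2% and 64.7% of all entries, and 8 and 9 after scaling, against 32.9% and 35.0% of all entries. Fabp4, the fatty acid carrier of adipocytes, was among the most abundant transcripts of both depots, 11032, 9633, 10177 and 8928 FPKM in BAT and 16358, 18631, 19664 and 20132 FPKM in iWAT (log2 difference -0.91 ± 0.11). Lipoprotein lipase (Lpl) was 735, 743, 754 and 718 FPKM in BAT and 2337, 2561, 2547 and 2809.9 FPKM in iWAT (log2 difference -1.79 ± 0.08). Gpd1 and Slc2a4, given above, were 2 of the higher members. Adiponectin (Adipoq), the insulin-sensitizing hormone, was 646, 671, 705 and 642 FPKM in BAT and 3507, 3699, 3248 and 3832 FPKM in iWAT (log2 difference -2.42 ± 0.08). Adipsin (Cfd) was 562, 728, 729 and 502 FPKM in BAT and 6592, 2962, 6842 and 6693 FPKM in iWAT (log2 difference -3.13 ± 0.27), with iWAT 2 the lowest inguinal library and still above every brown one.

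Adipokines of white fat were lower in 12 of 14 and higher in 1 on both scales. Of all entries 64.7% were lower and 14.2% higher as deposited, and 35.0% and 32.9% after scaling. Sfrp5, a secreted Wnt inhibitor, was 1.44, 0.976, 0.740 and 0.664 FPKM in BAT and 256, 336, 214 and 305 FPKM in iWAT (log2 difference -7.15 ± 0.16, adjusted p 1.11e-09). Resistin (Retn) differed by -5.92 ± 0.19 and the protease inhibitor Serpina3c by -5.75 ± 0.13. Nampt, an enzyme of NAD synthesis that is also secreted, was the member higher in BAT, 61.2, 62.5, 65.4 and 73.7 FPKM against 21.0, 21.1, 23.9 and 23.2 FPKM (log2 difference 1.51 ± 0.08). Of 11 factors named in the literature as secreted by brown fat, 3 were higher and 8 lower, against 14.2% and 64.7% of all entries, and 3 and 7 after scaling, against 32.9% and 35.0% of all entries. Nrg4 was 92.6, 111, 98.7 and 101 FPKM in BAT and 71.6, 51.8, 69.9 and 74.5 FPKM in iWAT (log2 difference 0.59 ± 0.12, adjusted p 0.00101), and the vessel growth factor Vegfa differed by 0.81 ± 0.16. Igf1 was lower, 4.79, 4.66, 4.63 and 2.58 FPKM in BAT and 124, 120.1, 107 and 111 FPKM in iWAT (log2 difference -4.52 ± 0.15). Fgf21 was low in both depots, 0.698, 1.41, 0.545 and 0.454 FPKM in BAT and 1.93, 1.93, 1.24 and 1.59 FPKM in iWAT, and Bmp8b was under 1 FPKM in all 8 libraries.

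**Figure D4:**
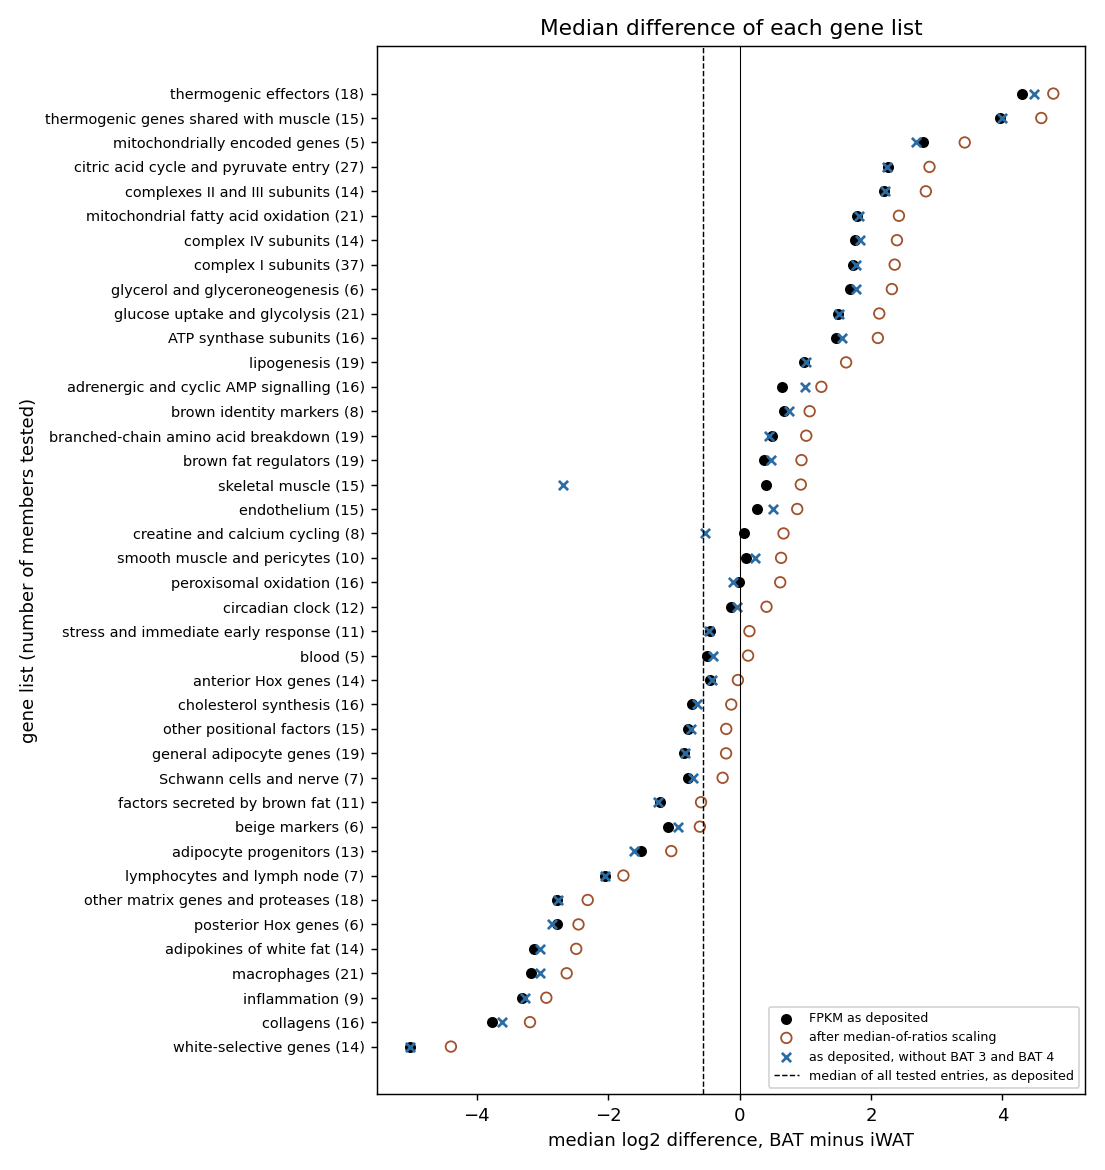
Median log2 difference (BAT minus iWAT) of the tested members of each gene list, with the number tested in parentheses: filled circles as deposited, open circles after median-of-ratios scaling, crosses as deposited without BAT 3 and BAT 4. The dashed line is the median of all tested entries (-0.55); the skeletal muscle list moves from 0.40 to -2.68 without BAT 3 and BAT 4, and the thermogenic list stays at the top.

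Immune genes were mostly lower in BAT. All 21 macrophage genes were lower on both scales, against 64.7% of all entries as deposited and 35.0% after scaling, with a median of -3.17. In bulk tissue, fewer cells of a type and less RNA per cell cannot be told apart. Without Lpl, which adipocytes also make, the summed level of the list was 86.3, 80.9, 72.7 and 54.3 FPKM in BAT and 1079, 1642, 1059.5 and 1036 FPKM in iWAT. Lgals3, a galectin of lipid-laden macrophages, was 2.12, 2.61, 1.44 and 1.24 FPKM in BAT and 116, 189, 97.4 and 138 FPKM in iWAT (log2 difference -5.56 ± 0.21, adjusted p 1.81e-08). Lysozyme (Lyz2) and Clec10a, a lectin of tissue macrophages, differed by -4.04 ± 0.18 and -4.07 ± 0.15. Among 9 inflammatory genes 0 were higher and 7 lower, against 14.2% and 64.7% of all entries. After scaling 1 was higher and 7 lower, against 32.9% and 35.0% of all entries. The acute-phase gene Saa3 was 0.105, 0.106, 0 and 0 FPKM in BAT and 26, 56.9, 8.03 and 19.1 FPKM in iWAT (log2 difference -4.46 ± 0.50), and the chemokine Ccl8 differed by -4.38 ± 0.48.

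The inguinal pad of the mouse contains a lymph node, and the lymphocyte list was examined for that reason. Its summed level was 84.2, 79.5, 145 and 59.1 FPKM in BAT and 1301, 1766, 2261 and 1273 FPKM in iWAT. Every inguinal library was above every brown one, and iWAT 3 was the highest. Of the 18 listed genes 7 were tested, and 3 were lower, a smaller share than the 64.7% of all entries (2 after scaling, and 5 without iWAT 3). Ighm, the heavy chain of IgM, was 14.0, 10.7, 10.6 and 11.7 FPKM in BAT and 542, 774, 620.4 and 692 FPKM in iWAT (log2 difference -5.69 ± 0.12, adjusted p 1.07e-09). Cd74, the invariant chain of antigen presentation, differed by -3.82 ± 0.21. The part of lymph node tissue in the immune differences was not tested.

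**Figure D5:**
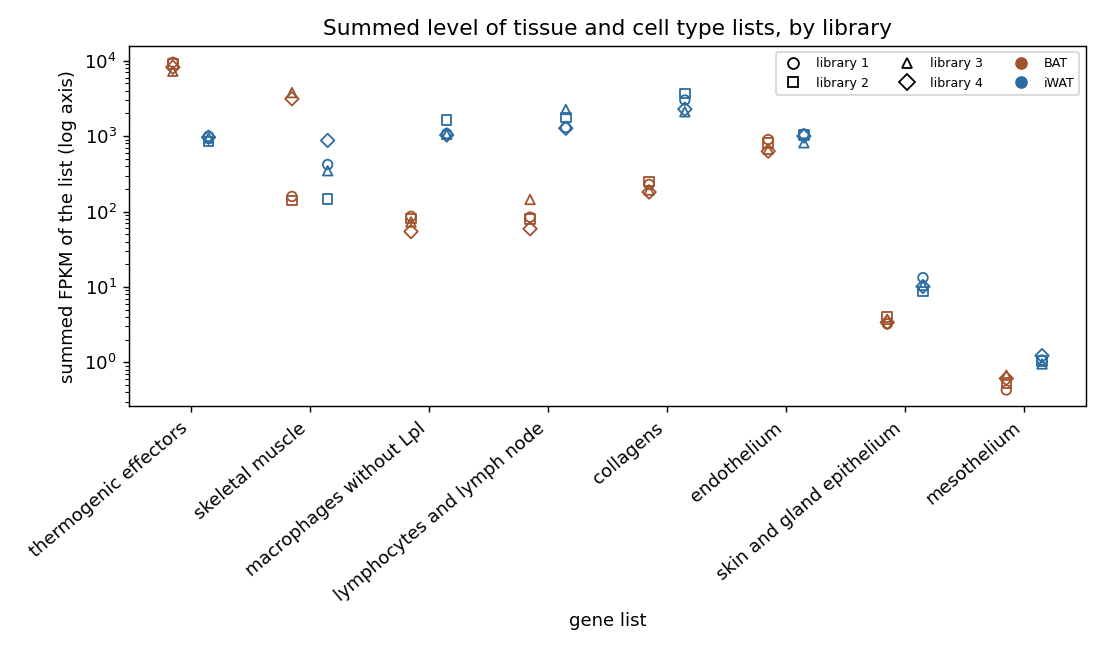
Summed FPKM (log axis) of lists that mark tissues and cell types, 1 symbol per library, brown for BAT and blue for iWAT. Macrophage, lymphocyte and collagen sums are lower in all 4 BAT libraries, the muscle sum is high in BAT 3 and BAT 4, and endothelial sums overlap.

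Matrix genes were mostly lower in BAT as well, where 64.7% of all entries were lower on deposited values and 35.0% after scaling. Of 16 collagen genes 14 were lower on both scales, with a median of -3.77, and 0 were higher on deposited values and 2 after scaling (1 on deposited values without iWAT 2). Col18a1, a basement membrane collagen, was 2.49, 3.51, 2.41 and 2.66 FPKM in BAT and 85.0, 96.5, 64.8 and 86.7 FPKM in iWAT (log2 difference -4.48 ± 0.14, adjusted p 3.80e-09). Col15a1 and Col5a3 differed by -4.40 ± 0.18 and -4.39 ± 0.13. Among the other matrix genes and proteases 17 of 18 were lower (16 after scaling) and 0 higher. Fibronectin (Fn1) was 7.43, 5.06, 4.36 and 4.55 FPKM in BAT and 91.0, 128, 67.6 and 74.1 FPKM in iWAT (log2 difference -3.82 ± 0.21), and the protease Mmp3 and the protease inhibitor Timp2 differed by -3.95 and -3.61. Progenitor genes were lower in 10 of 13 and higher in 1, against 64.7% and 14.2% of all entries (9 and 1 after scaling, against 35.0% and 32.9%). Pi16, a marker of early fat progenitors, was 8.08, 3.85, 5.09 and 5.49 FPKM in BAT and 95.6, 75.8, 93.1 and 83.6 FPKM in iWAT (log2 difference -3.76 ± 0.17). The preadipocyte factor Dlk1 was the higher one, 3.04, 2.94, 4.11 and 3.17 FPKM in BAT and 0.642, 0.285, 0.351 and 0.423 FPKM in iWAT (log2 difference 1.60 ± 0.12).

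Vessels and nerve showed no single direction, beside 14.2% of all entries higher and 64.7% lower on deposited values (32.9% and 35.0% after scaling). Endothelial genes were higher in 5 of 15 and lower in 4 (10 and 3 after scaling). The growth factor receptors Kdr and Flt1 were higher, Kdr at 37.2, 31.2, 25.2 and 21.2 FPKM in BAT and 13.3, 11.9, 5.62 and 9.61 FPKM in iWAT (log2 difference 1.45 ± 0.25) and Flt1 by 1.41 ± 0.20. The large-vessel gene Vwf and the junction gene Cldn5 were lower, at -1.43 ± 0.13 and -1.47 ± 0.22. Of 7 Schwann cell genes 1 was higher and 4 lower, near the shares of all entries (3 and 4 after scaling). S100b was 139, 132, 125 and 132 FPKM in BAT and 5.11, 6.79, 6.07 and 5.72 FPKM in iWAT (log2 difference 4.27 ± 0.09); it is also known as a factor that brown adipocytes secrete. Smooth muscle and pericyte genes were higher in 4 of 10 and lower in 4 (6 and 3 after scaling). Desmin (Des) was 36.2, 33.7, 59.3 and 61.7 FPKM in BAT and 10.3, 7.97, 12.2 and 12 FPKM in iWAT (log2 difference 2.03 ± 0.22, and 1.65 without BAT 3 and BAT 4), while smooth muscle actin Acta2 and the adhesion molecule Mcam differed by -2.62 ± 0.20 and -3.79 ± 0.11.

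The remaining lists were more mixed, and their counts stand against 14.2% of all entries higher and 64.7% lower on deposited values. After scaling those shares were 32.9% and 35.0%. Clock genes were higher in 3 of 12 and lower in 4 (6 and 2 after scaling): the repressor Ciart differed by 1.64 ± 0.20, the activator Arntl by -0.96 ± 0.12 and Cry2 by -1.02 ± 0.09. No collection times are given in the labels. Cholesterol synthesis genes were lower in 15 of 16 on deposited values but in 4 after scaling, a smaller share than the 35.0% of all entries. Of 5 blood genes 4 were lower on deposited values and 0 after scaling, and the deposited count was 0 without BAT 2, 1 without BAT 4, iWAT 1 or iWAT 3, and 2 without iWAT 4. Stress and immediate early genes were lower in 6 of 11 on deposited values, a smaller share than the 64.7% of all entries (2 after scaling, with 1 higher). None of the 10 mesothelial genes passed the filter, and their summed level was at most 1.23 FPKM in any library; skin and gland genes summed to 3.23 to 3.96 FPKM in BAT and 8.66 to 13.3 FPKM in iWAT.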

How the data were processed

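RNA-seq of brown (BAT) and inguinal (iWAT) fat, 4 libraries each, was read from a deposited table of FPKM per gene, 1 column per library. The authors made the FPKM values from reads aligned to mm10, with TopHat, TopHat2 2.0.9 and Cufflinks 2.1.1 named in the submitters' processing notes without their settings. The deposited values carry no counts. In genes under 0.1 FPKM the ratios between libraries clustered at single steps, as whole reads would give, and put the depth of the 8 libraries at 0.825 to 1.08 of that of BAT 1; absolute depth is unknown. Values summed to 818815 to 864154 FPKM per library in BAT and 876483 to 942144 in iWAT.

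Entries with at least 1 FPKM in at least 4 of the 8 libraries entered a limma model (version 3.58.1 in R 4.3.3) of log2(FPKM + 1), with a trended, robust eBayes step and Benjamini-Hochberg adjustment over all 13878 entries; the call threshold was an adjusted p of 0.05. The pseudocount of 1 understates the change of low genes. Entries at exactly 0 in a whole depot with a median of at least 10 FPKM in the other (43 entries, 15 of which would have passed the filter) were left out as failed estimates. The fit was repeated after median-of-ratios scaling. On data simulated for BAT against iWAT over 13878 entries, the fit recovered 94% of 100 genes raised by a log2 of 1 and 100% of 100 raised by 2. Of its 206 calls 5.83% were false. The simulation used normal noise, raised only these genes in BAT and left every other entry unchanged. In the real data most entries were called and the median differed between depots, so this rate does not cover the choice of scale.

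The 42 gene lists (651 genes, 645 matched in the table by symbol or an older symbol) and the comparison itself were chosen with earlier results of these data known; lists are described by counts and medians with no test. Named genes were the 12 largest rises and falls among called genes whose libraries did not overlap and whose mean reached 5 FPKM in the higher depot (Gm, Rik and LOC names left out), up to 3 called members in each direction of each list, the gene pairs, and a set of well-known depot genes; some genes this rule names are not reported here. Symbols are those of the file; spans are GENCODE vM21 on mm10. Upstream sequences are RefSeq's, GRCm38.p6. Plots were drawn with matplotlib 3.10.9. Alternatives were another pseudocount, other filters, 2 scalings, a fit of all 16 libraries, plain eBayes, a replicate block, both treatments of zeros, and leaving out libraries; scaling together with leaving out BAT 3 and BAT 4 was added after seeing the data.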

Additional observations from a re-analysis of the deposited data

Results flagged for a closer look

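For each gene named in the text and each depot, the 4 libraries were examined for 1 that stood far from the other 3 (by Dixon's ratio of gap to range). Of 288 groups of 4, 18 held such a library, and chance alone flags about 1 in 20. Inguinal libraries that stood above their group were found for Dio2 at 6.73 FPKM in iWAT 2 (other 3 libraries 0.203 to 0.323), Fabp3 at 2.63 FPKM in iWAT 4 (other 3 libraries 0.387 to 0.763) and Pfkl at 47.9 FPKM in iWAT 2 (other 3 libraries 33.6 to 35.6). The same held for Alpl at 3.26 FPKM in iWAT 2 (other 3 libraries 1.90 to 2.09), Zic1 at 0.0119 FPKM in iWAT 4 (the other 3 at 0) and Epsti1 at 19.7 FPKM in iWAT 3 (other 3 libraries 3.33 to 4.24). Inguinal libraries that stood below their group were found for Bcat2 at 102 FPKM in iWAT 2 (other 3 libraries 116 to 117) and Cfd at 2962 FPKM in iWAT 2 (other 3 libraries 6592 to 6842). Brown libraries that stood above their group were found for Cox7a1 at 3352 FPKM in BAT 1 (other 3 libraries 2737 to 2807), Gata6 at 0.225 FPKM in BAT 2 (other 3 libraries 0.145 to 0.157) and Sdhb at 1011 FPKM in BAT 1 (other 3 libraries 922 to 934). The same held for Hoxa10 at 0.294 FPKM in BAT 3 (the other 3 at 0) and Slc7a10 at 8.79 FPKM in BAT 3 (other 3 libraries 2.73 to 3.22). Brown libraries that stood below their group were found for Acot11 at 56.5 FPKM in BAT 3 (other 3 libraries 98.1 to 101), Gpd1 at 2276 FPKM in BAT 3 (other 3 libraries 2805 to 2871) and Sncg at 18.6 FPKM in BAT 4 (other 3 libraries 27.4 to 29.1). The same held for Igf1 at 2.58 FPKM in BAT 4 (other 3 libraries 4.63 to 4.79) and Mmp3 at 0.515 FPKM in BAT 1 (other 3 libraries 0.639 to 0.657). No cause was tested for any of these.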

How the results depend on the processing

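Of the settings tried, the scaling moved the counts of calls by over 1.5 times: from 1974 higher and 8974 lower to 4562 and 4855 after median-of-ratios scaling, 4990 and 4582 after quantile normalization, and 4217 and 4326 with scaling and without BAT 3 and BAT 4. Leaving out 1 library gave 1853 to 2002 higher and 8662 to 8871 lower. A stricter filter of 5 FPKM tested 9581 entries and no filter tested 27073. The labels do not say whether equal replicate numbers mark the same mouse, and the numbers were not treated as pairs. Correlations of same-numbered deviations were 0.0252 to 0.144, and those of unlike numbers -0.211 to 0.193. BAT 1 and BAT 2 correlated best with iWAT 2, BAT 3 with iWAT 4 and BAT 4 with iWAT 1. Correlations this small cannot decide whether the samples were paired. With the replicate block the counts were 1996 higher and 8954 lower.

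Direction turned for few named genes. Under quantile normalization Irf4 was 0.0749, Zfp516 0.15 and Fgf21 0.0290, and Lhx8 (adjusted p 0.0516), Slc2a1 (0.0935) and Hspb7 (0.127) were no longer called. Scd1 was -1.83 with its single 0 set to missing or without iWAT 4 (-1.83 to 2.48 over single libraries). For the muscle genes, Atp2a1 was -0.0563 and Cox6a2 -0.51 with a pseudocount of 0.1, -3.29 and -1.94 without BAT 3 and BAT 4, -2.88 and -1.70 with scaling as well, and -0.84 to 1.68 and -0.28 to 1.42 over single libraries left out. With scaling and without BAT 3 and BAT 4, Fabp4 (adjusted p 0.196), Acaa1b (0.0659), Slc2a1 (0.088), Bcat2 (0.084) and Epsti1 (0.0512) were no longer called. Ces1d, not called as deposited, was 0.52 after scaling and 0.44 with scaling and without BAT 3 and BAT 4. The cause was not tested. Absolute depth is unknown, so no floor can be set for genes listed at 0.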
